A study of Caenorhabditis elegans with 2 samples.

Results

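The genes described here are 10 T-box transcription factor genes of Caenorhabditis elegans, tbx-2, tbx-7, tbx-11, tbx-33, tbx-35, tbx-37, tbx-38, mab-9, mls-1 and sea-1, of 19973 protein-coding genes on the nuclear chromosomes. They were listed by name, with no measured value in the rule, but earlier results of these data were known. The list leaves out tbx-9, which encodes the immunoprecipitated protein, and its neighbour tbx-8. All 10 names were found in the annotation, 7 on chromosome III and 3 on chromosome II. A peak was assigned to a gene when its summit lay inside the gene or within 2000 bp of it.

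Chromatin came from whole young adults of strain OP636, mixed in sex, 63 hours after synchronization as starved L1 larvae. The strain carries unc-119(tm4063) on chromosome III and the integrated transgene wgIs636, which makes TBX-9 with GFP and FLAG at its C terminus. GFP was the antibody target per the sample descriptions, although another label field names tbx-9 as the antibody. There were 2 biological replicates of this 1 group and no second condition; the control experiment that the labels name was not analysed here. In whole-worm chromatin, strong binding in few cells and weak binding in many cannot be told apart.

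T-box proteins bind DNA through a conserved domain that recognises sequences around the core GGTGTGA, and they act mostly as switches of cell fate. Several worm T-box genes work in the early embryo: tbx-37 and tbx-38 act redundantly in the descendants of the blastomere ABa that respond to Notch signalling, tbx-35 specifies the MS blastomere downstream of the MED factors, and tbx-2 is needed for pharyngeal muscle. Others act elsewhere: mab-9 in the hindgut and male tail, mls-1 in uterine muscle, and sea-1 as an autosomal signal in sex determination that acts on xol-1. The peak lists were read for whether, and how high in each list, peaks of tagged TBX-9 lay at these genes.

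None of the 10 genes had a peak that passed the irreproducible discovery rate (IDR) threshold, the authors' test of agreement between replicates. An IDR summit lay within 2000 bp of 1.48% of all protein-coding genes, so a lower share among 10 genes could not be seen; a count of 0 of 10 allows a share of up to 30% on the rule of 3 counts, for counting error only. The closest IDR summit was 33128 bp from mls-1, and for the other 9 genes it was at least 94402 bp away, the distance from tbx-2. For comparison, tbx-9 had 2 IDR peaks by the same rule, with signal values of 120.3 and 108.5. The stronger had its summit 844 bp beyond the end of tbx-9, in a coding exon of the neighbour ttr-15, and the other had it inside tbx-9. The transgene carries tbx-9 sequence, and reads from it and from the native gene cannot be told apart. Summits were also dense around tbx-9: 15 of the 169 IDR summits and 54 pooled summits lay within 50 kb of it. The 10 T-box genes had 15 to 40 pooled summits within that distance. The peaks at tbx-9 are therefore not particular to that gene within its neighbourhood, and the cause was not tested.

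Peaks at these genes came instead from the relaxed lists, which the authors made as input for the IDR step and which hold background as well as peaks. Relaxed summits of the pooled list lay at 6 of the 10 genes, tbx-2, tbx-11, tbx-33, tbx-37, tbx-38 and sea-1, against 80.1% of all protein-coding genes. Replicate 1 had summits at 5 of the 10, against 78%, and replicate 2 at 8, against 81.9%. The same 5 genes, tbx-2, tbx-11, tbx-37, tbx-38 and sea-1, had summits in both replicates, against 68.8%. There was no relaxed summit at all at mab-9 and mls-1, a state shared by 7.79% of protein-coding genes.

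**Figure D1:**
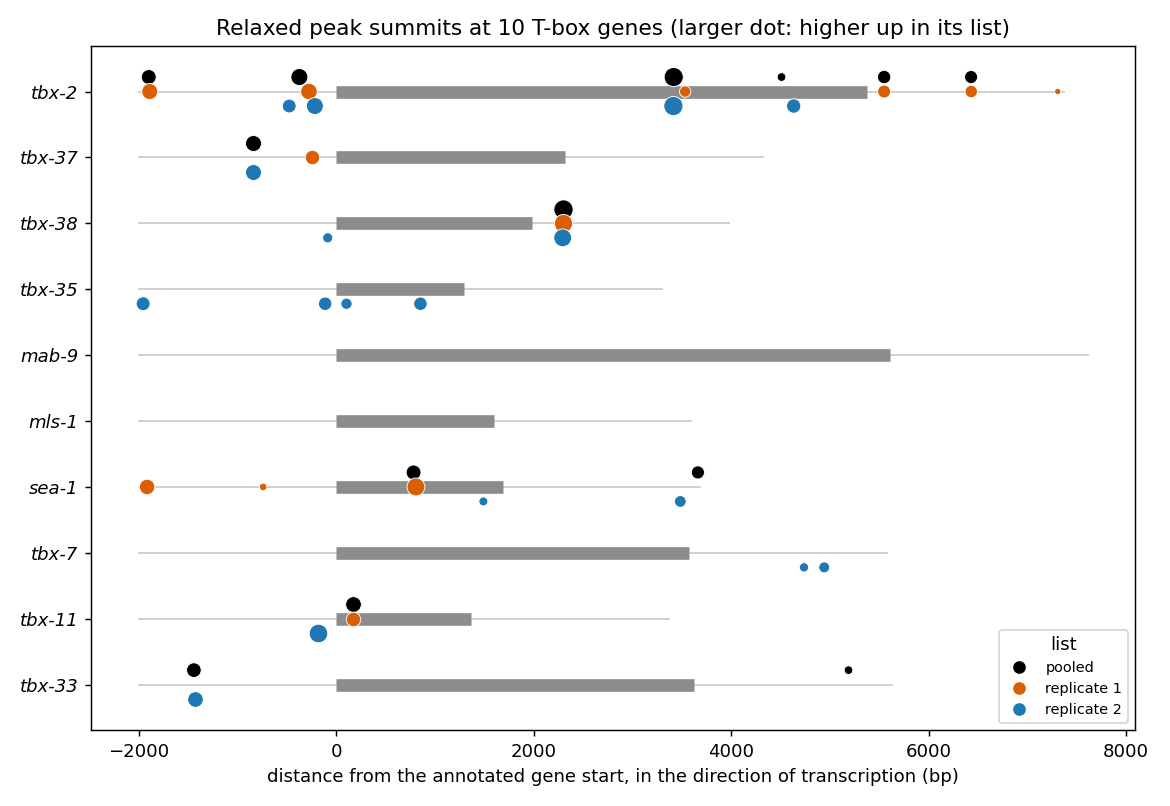
Summits of the pooled, replicate 1 and replicate 2 relaxed lists (dots) along each of the 10 genes (thick bars) and their 2000 bp flanks (thin lines), by distance in bp from the annotated start; larger dots stand higher up in their own list. tbx-2 has 6 pooled summits, mab-9 and mls-1 have none in any list, and at tbx-38 the 3 lists meet beyond the end of the gene.

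The sequences around the highest-ranked pooled summit of tbx-38, tbx-2, tbx-37 and tbx-11, the 4 genes that rank highest in the pooled list, are shown first because the results below refer to them. The second summit of tbx-2 had a higher signal than those of tbx-37 and tbx-11 and is not printed. Each runs from 100 bases before to 100 bases after the summit on the plus strand of ce11, from the RefSeq sequence of WBcel235. All genes shown lie on the minus strand. The first is chrIII:11783660-11783860, 322 bp beyond the end of tbx-38, with capitals on the unit AGGCA and its reverse complement TGCCT. The next is chrIII:5132778-5132978, in an intron of tbx-2, with the summit base in capitals. The tbx-37 window is chrIII:11227866-11228066, upstream of the gene, with capitals on CACACC, the reverse complement of GGTGTG. The tbx-11 window, chrIII:6046712-6046912, lies in the coding sequence next to the start and again has its summit base in capitals.
tbx-38 downstream: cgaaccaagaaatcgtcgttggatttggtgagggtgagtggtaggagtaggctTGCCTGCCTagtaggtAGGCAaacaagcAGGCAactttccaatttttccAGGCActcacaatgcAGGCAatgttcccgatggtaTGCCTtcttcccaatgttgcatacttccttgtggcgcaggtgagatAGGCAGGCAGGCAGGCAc
tbx-2 intron: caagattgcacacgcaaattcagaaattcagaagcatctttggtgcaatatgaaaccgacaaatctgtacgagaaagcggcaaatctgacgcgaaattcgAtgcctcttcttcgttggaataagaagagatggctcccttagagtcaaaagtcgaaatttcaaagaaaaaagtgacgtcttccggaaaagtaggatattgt
tbx-37 upstream: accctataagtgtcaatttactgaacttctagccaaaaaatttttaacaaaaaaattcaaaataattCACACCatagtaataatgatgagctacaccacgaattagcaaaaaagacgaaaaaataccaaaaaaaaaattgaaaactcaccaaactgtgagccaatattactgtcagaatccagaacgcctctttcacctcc
tbx-11 start: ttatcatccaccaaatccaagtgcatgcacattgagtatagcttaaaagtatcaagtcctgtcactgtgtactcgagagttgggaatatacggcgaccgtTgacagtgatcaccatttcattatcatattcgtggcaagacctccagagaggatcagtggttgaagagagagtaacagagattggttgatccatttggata

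The tbx-38 window held 11 copies of AGGCA on either strand, counting overlapping copies, and 51.7% of its bases were G or C. At least 11 copies stood in 29 of the 29990 nuclear pooled windows, 0.0967%, while 22.2% held at least 1. This unit was chosen after the sequence was seen. No 31-base word of the window occurred elsewhere in the genome. The strongest tbx-33 window, centred on 11638280, held 5 copies of the same unit, and the other 11 windows at these genes held 0 or 1.

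The T-box core GGTGTGA was searched on both strands in the same windows around each of the 13 pooled summits at the 10 genes and was found in 1, at tbx-37, where it is read as TCACACC: the t before the capitals belongs to it, and the capitals start 33 bp before the summit. This core stood in 1.73% of all nuclear pooled windows of the same length, and 1 window of 13 does not set these genes apart. The shorter GGTGTG, which lies within GGTGTGA, was found in the same window alone, against 6.07%. The longer AGGTGTGA, which contains GGTGTGA, was in none of the 13, against 0.453%. In whole peaks of mostly 390 bp a second GGTGTGA appeared, in the tbx-2 peak with its summit 176 bp beyond the end of the gene, against 3.26% of all peaks.

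Over the whole searched stretches, GGTGTG occurred at 8 of the 10 genes, against 74.9% of all protein-coding genes. GGTGTGA occurred at 4, against 36.2%, with 3 copies at tbx-2 and 1 each at tbx-7, tbx-37 and tbx-38. AGGTGTGA occurred at none, against 12.6%. The stretches of mab-9 and mls-1, the genes with no relaxed summit, held none of these words; GGTGTG stood in 84.2% of the 1371 stretches of 8500 to 10000 bp, the class of mab-9, and in 71% of the 5109 of 5500 to 6500 bp, the class of mls-1. The stretches of tbx-7 and tbx-35, which had summits in replicate 2 only, held 4 and 2 copies of GGTGTG. A match describes these letters in this window and does not mark a site that is used.

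tbx-2, the gene needed for pharyngeal muscle (III, 5130923 to 5136296), had the most peaks. Its 6 pooled summits had signal values of 42.3, 30.01, 25.3, 23.2, 22.8 and 19.2, on the authors' scale, and stood at ranks 2687, 9044, 14681, 18300, 18935 and 26871 of 30000, where rank 1 has the highest signal. Protein-coding genes with a searched stretch of 8500 to 10000 bp, as tbx-2 has, carried 3.17 pooled summits on average.

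The strongest tbx-2 summit lay in an intron of the gene, 3418 bp from its start, and the replicates did not give it the same weight. Replicate 2 had a peak there with signal 22.2 at rank 2613 of 30000 and a summit 3 bp away. Its q-value of 0.0362 was the lowest in any relaxed list at the 10 genes. Replicate 1 had a peak with signal 15.7 at rank 19206 of 25659, with its summit 116 bp away and a q of 0.861.

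The second tbx-2 peak lay upstream, 372 bp before the gene start in intergenic sequence. It stood at similar depth in both replicates, at rank 8918 in replicate 1 with signal 20.8 and at rank 9260 in replicate 2 with signal 15.6. These summits were 97 and 157 bp from the pooled one, and replicate 2 had a further overlapping peak at rank 17336. The other 4 tbx-2 summits were each matched in 1 replicate only. Of these, 1 lay in a coding exon of the neighbour Y54H5A.2, 1897 bp upstream, and 1 in an intron of sax-2, 1056 bp beyond the end.

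tbx-38 (III, 11784082 to 11786061) had the strongest pooled peak of the 10 genes, with a signal of 44.7 at rank 2195. All lists gave nearly the same position. The replicate 1 summit, with signal 24.99 at rank 4777, was at the same base, and that of replicate 2, with signal 17.2 at rank 6788, was 7 bp away. The pooled q-value was 0.0795. The peak did not lie in tbx-38 itself: the summit was in an intron of srd-74, named as a serpentine receptor gene, whose start at 1660 bp was also closer than that of tbx-38 at 2301 bp. At the start of tbx-38, replicate 2 alone had a summit, 85 bp upstream with signal 10.5 at rank 24709.

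tbx-37 (III, 11224808 to 11227125), which acts with tbx-38, had 1 pooled summit, 841 bp upstream, with signal 27.4 at rank 11892. The replicate 2 summit was at the same base, with signal 14.3 at rank 11953. The only replicate 1 summit lay elsewhere, 247 bp upstream, with signal 18.1 at rank 13500, and its peak did not overlap the pooled one. The pair is similar in sequence in part: 31 words of 31 bases occurred in both genes, 1.35% of those of tbx-37 and 1.61% of those of tbx-38. Counting all repeats in the genome, 9.62% of the words in the tbx-37 stretch and 12.2% in the tbx-38 stretch occurred more than once, against a median of 1.88% over all protein-coding genes. None of this lay in the windows of their pooled summits.

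At tbx-35, the MS specification gene (II, 5524101 to 5525397), the pooled list and replicate 1 had no summit. Replicate 2 had 4, with signal values of 12.5, 12.2, 12.2 and 10.9 at ranks 17107 to 22687. They lay 1954 and 111 bp upstream and 105 and 854 bp inside the gene. The one 1954 bp upstream, the strongest of the 4, was closer to the start of ZK177.1, at 790 bp. The replicates thus differ here in whether any peak was listed, and all 4 stood below the middle of the list.

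mab-9, the hindgut gene (II, 516024 to 521635), is the longest of the 10, and its searched stretch of 9612 bp held no summit of any list. Of the 1371 genes with stretches of 8500 to 10000 bp, 47 had none, 3.43%. The closest pooled summit was 5509 bp from the gene at rank 11992, and 15 pooled summits lay within 50 kb of it, the fewest of the 10 genes. mls-1, the uterine muscle gene (III, 7460341 to 7461934), had its closest pooled summit at 3668 bp, and that one was strong, at rank 1468. Around it 17 pooled summits lay within 50 kb, against 22 to 40 for the other 8 genes.

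sea-1 (II, 3671908 to 3673593) had a summit inside its coding sequence, 784 bp from the start, with signal 25.3 at pooled rank 14755. Replicate 1 had it at rank 5525 with signal 24.0 and a summit 24 bp away. Replicate 2 had no overlapping peak; its summit in sea-1 lay 1491 bp from the start with signal 10.1 at rank 26535. A further pooled summit, at rank 18840, was in an intron of srx-98, 1978 bp beyond the end of sea-1.

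The remaining genes, tbx-7, tbx-11 and tbx-33, are named as T-box genes, and no role is given to them here. tbx-11 (III, 6045615 to 6046981) had 1 pooled summit, 169 bp inside the gene, with signal 26.8 at rank 12630, and replicate 1 had its summit at the same base with signal 18.1 at rank 13468. The replicate 2 peak reached into this region from the other side of the start, with its summit 184 bp upstream, 353 bp away, at signal 19.4 and rank 4400. tbx-33 (III, 11633216 to 11636840) had a pooled summit 1440 bp upstream with signal 24.9 at rank 15325 and a replicate 2 summit 14 bp from it with signal 13.9 at rank 12850. The microRNA gene cel-mir-272 starts 220 bp from that pooled summit, closer than tbx-33. A weaker pooled summit at rank 26984 overlapped no peak of either replicate, and replicate 1 had none at tbx-33. tbx-7 (III, 6024958 to 6028532) had only replicate 2 summits, with signals of 10.8 and 10.2, and both lay in coding exons of the neighbour cyk-3.

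**Figure D2:**
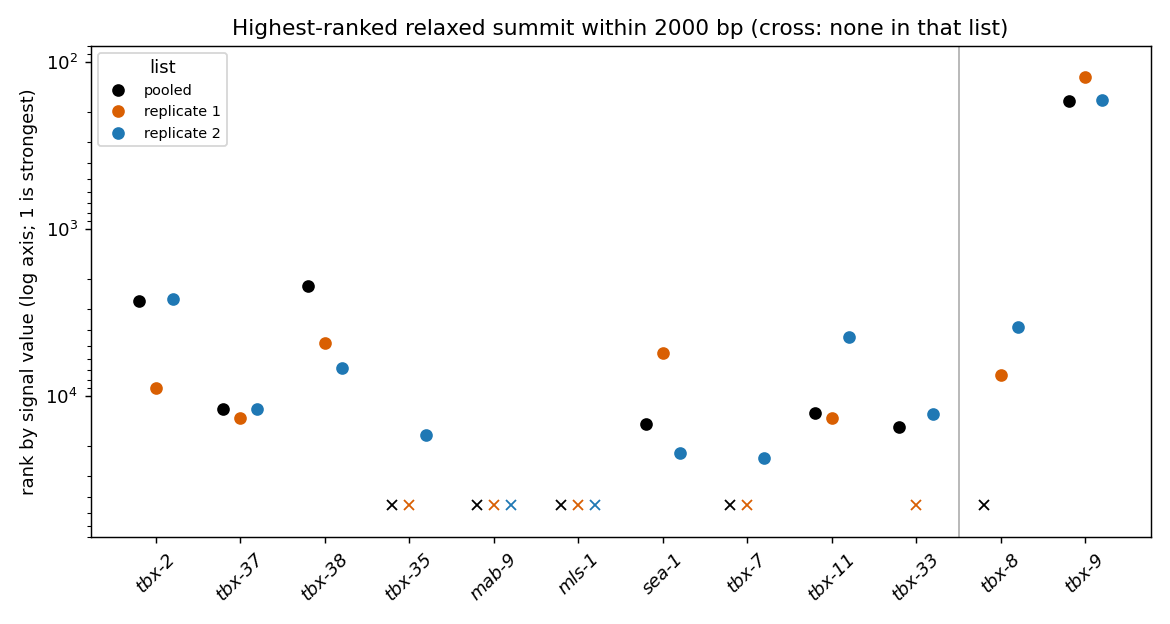
Rank of the highest-placed relaxed summit within 2000 bp of each gene in the pooled, replicate 1 and replicate 2 lists, on a log axis with rank 1 at the top; a cross marks a list with no summit at that gene. The 10 T-box genes stand past rank 2000 in all lists, whereas tbx-9 lies at 172, 123 and 168. These tbx-9 summits lie beyond the end of tbx-9, with those at 172 and 168 in a coding exon of ttr-15.

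By the highest pooled rank the order was tbx-38 (2195), tbx-2 (2687), tbx-37 (11892), tbx-11 (12630), sea-1 (14755) and tbx-33 (15325), followed by the 4 genes with none. In replicate 1 the first was tbx-38 at 4777, then sea-1 at 5525 and tbx-2 at 8918. In replicate 2 it was tbx-2 at 2613, then tbx-11 at 4400 and tbx-38 at 6788. tbx-38 and tbx-2 were therefore in the top 3 of every list, and the order below them was not the same in the replicates. The median over the 10 genes, with absent genes placed last, was 15040 in the pool, against 10935 over all protein-coding genes.

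Most of these peaks were at the level of the bulk of the list. The 13 pooled signal values ran from 19.2 to 44.7 with a median of 25.3, while the whole pooled list had a median of 25.1. Only tbx-38 and tbx-2 had a summit among the 10000 strongest pooled peaks, against 47.4% of all protein-coding genes. A q-value at or under 0.05 was reached by 0 of the 13 pooled peaks, against 5.8% of the list, and by 0 of 12 in replicate 1, against 5.86%. In replicate 2 it was reached by 1 of 17, the tbx-2 intron peak, against 10.1%. The strongest pooled peak at tbx-9 had a signal of 93.7, and its summit lay 894 bp beyond the end of tbx-9, in a coding exon of ttr-15.

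**Figure D3:**
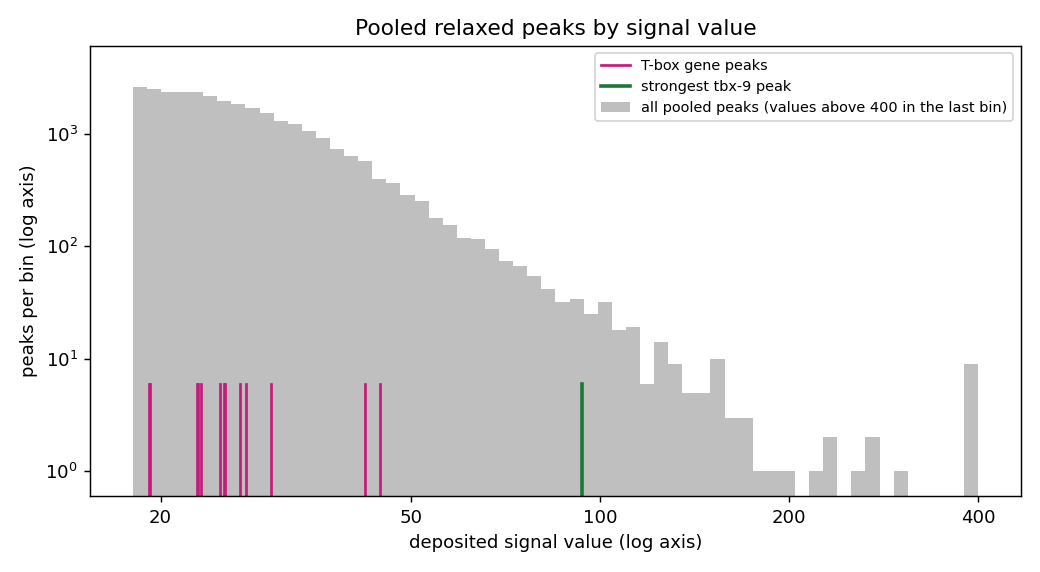
Distribution of the deposited signal value over all 30000 pooled relaxed peaks (grey bars, log axes; the highest values share the last bin), with the 13 peaks at the T-box genes in magenta and the strongest tbx-9 peak in green. The T-box peaks run from 19.2 to 44.7, and the tbx-9 peak stands at 93.7, with its summit in ttr-15 beyond the end of tbx-9.

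Of the 13 pooled peaks, 4 overlapped a peak of both replicates, 4 one of replicate 1 only, 4 one of replicate 2 only, and 1 neither. Over all pooled peaks the shares were 39.5%, 27.9%, 24.4% and 8.21%. The 4 shared peaks were the tbx-38 peak, the tbx-11 peak and the tbx-2 intron and upstream peaks. Thus 3 of the 10 genes had a pooled peak that overlapped a peak of both replicates, against 48.7% of all protein-coding genes. The pooled list was made from both libraries, so such an overlap is not independent of the replicates. When both replicate summits had to lie within 100 bp of the pooled summit, the tbx-38 peak alone was left. When the replicate summits had to lie within 100 bp of each other, whatever the pooled list, 2 genes were left, tbx-38 and tbx-2. No share over all protein-coding genes or all pooled peaks stands beside these stricter counts, so they do not set these genes apart.

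By place, 4 of the 13 pooled summits were upstream of the T-box gene, 4 inside it and 5 beyond its end. Over all protein-coding genes the shares were 25.2% upstream, 44.6% inside and 30.2% beyond, with a summit counted once for each gene it lay at. At the summit base itself, 4 lay in the T-box gene, 4 inside another gene and 5 in no gene. Of all 13, 9 had the start of the T-box gene as the closest start, and these belonged to tbx-2, tbx-11, tbx-37 and sea-1. The 9 include all 6 tbx-2 summits, among them the 1 in an intron of sax-2, 6429 bp from the tbx-2 start. The 1 in a coding exon of Y54H5A.2 is also among them. No share over all genes was taken for the closest start or for the gene that holds the summit.

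For their length, the stretches of the 10 genes together held 0.190 pooled summits per kb over 68.4 kb, against 0.340 over all protein-coding genes. In replicate 1 the values were 0.175 and 0.288, and in replicate 2 they were 0.248 and 0.338. tbx-2 alone gave 6 of the 13 summits, at 0.640 per kb. No test was made of this difference, since the list was chosen with earlier results known and there is 1 group.

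**Figure D4:**
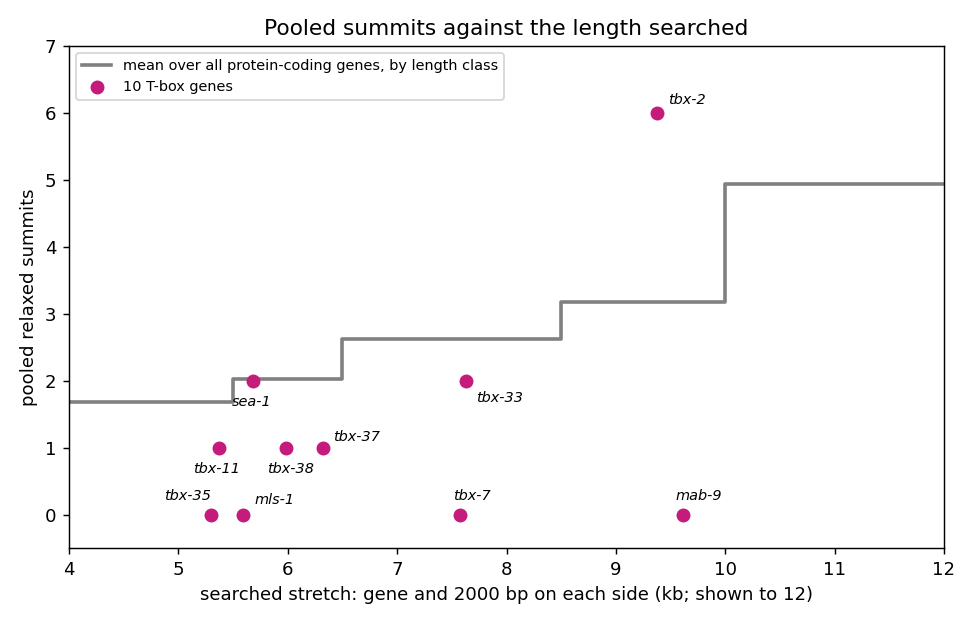
Number of pooled relaxed summits at each T-box gene (points) against the length of the searched stretch in kb, with the mean over all protein-coding genes in 5 length classes (line). tbx-2 lies above its class mean of 3.17, and mab-9, of the same class, is at 0.

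Base composition moved with the number of summits. Over all protein-coding genes sorted into 5 groups of equal size by the GC content of their stretch, pooled summits per kb were 0.183, 0.287, 0.349, 0.397 and 0.497 from the lowest to the highest, and the share with none in any relaxed list went from 16.1% to 4.46%. The mab-9 stretch had 31.1% GC, below all but 2.46% of genes, and that of tbx-33 had 32.3%, both in the lowest group. mab-9 had no pooled summit, and tbx-33 had 0.262 per kb, above the 0.183 of the group. The mls-1 and tbx-35 stretches had 34.5% and 34.7%, in the next group. Neither had a pooled summit, although tbx-35 had 4 summits in replicate 2. The T-box genes did not all follow the order of the groups. tbx-38, in the highest group with 39.7% GC, had 0.167 summits per kb, and tbx-11, in the group below it with 37.8%, had 0.186. tbx-7, in the middle group with 35.8%, had none. tbx-2, with 37.2%, had 0.640 per kb, against 0.397 for its group. The median was 35.7% over the T-box genes and 35.6% over all genes. The part of GC content in the counts at these genes was not tested.

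**Figure D5:**
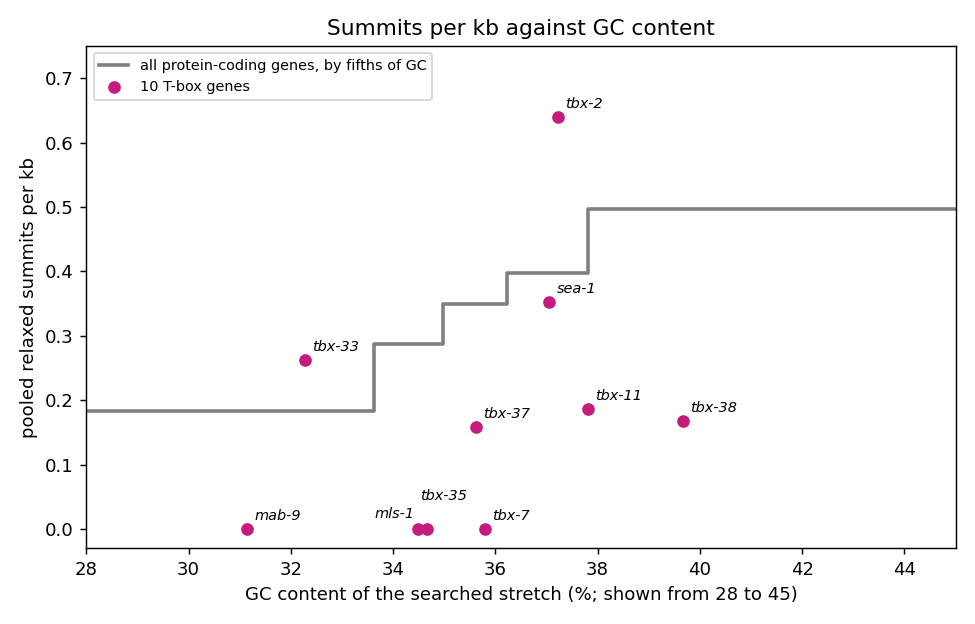
Pooled relaxed summits per kb at each T-box gene (points) against the GC content of its searched stretch, with the value over all protein-coding genes in 5 groups of equal size by GC content (line). The line rises from 0.183 to 0.497, and tbx-2 and tbx-33 are the T-box genes above it.

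tbx-8, the paralogue of tbx-9 that lies beside it, had no pooled summit within 2000 bp. Its highest replicate ranks were 7523 and 3855. Among the other annotated tbx genes, 9 of 11 names were found, as 10 genes because tbx-30 names a pair of genes. Pooled summits lay at 7 of these 10, led by tbx-31 at rank 2948, tbx-41 at 7376 and tbx-43 at 11982, and no IDR peak lay at any of them. Neither copy of tbx-30 had a relaxed summit; 100% of the 31-base words in both copies, and 95.3% and 85.6% of those in their stretches, occur more than once in the genome, so reads there may not be placed uniquely and the absence cannot be read as no binding.

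A list of 31 genes that act with or around these T-box factors had a median stretch of 7955 bp, against 6149 bp for the T-box genes. Of the 31, 28 had a pooled summit, against 80.1% of all protein-coding genes. A pooled peak that overlapped a peak of both replicates stood at 15, against 48.7%. None of the 31 had an IDR peak. The 5 with the highest pooled rank were ubc-9, the SUMO-conjugating enzyme, at 468, gei-17, a SUMO ligase, at 1456, skn-1, the maternal factor upstream of the MS fate, at 1458, smo-1, which encodes SUMO, at 2212, and lag-1, the Notch pathway DNA-binding factor, at 2330. The ubc-9 summit, with signal 69.3, lay 45 bp beyond the end of the gene in a coding exon of F29B9.5, whose start was 77 bp away. The skn-1 summit lay 51 bp upstream of its gene. The genes without a pooled summit were ceh-22, hnd-1 and med-2. xol-1, on which SEA-1 acts, had its highest pooled summit at rank 12095.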

How the data were processed

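Members and gene lists were chosen with earlier results of these data known. Notes deposited beside the peak files say that the authors made relaxed lists of peaks and background on ce11 from the alignment of each library, or of both pooled, and from control files, and made the IDR list from the relaxed lists. Which aligner and which caller were used is not given in the sources used. The signal of a peak is the authors' deposited value, of unstated scaling, so it was read within a list. The q-values were taken from the deposited −log10 q. The deposited lists held 30000 pooled peaks, 25659 of replicate 1, 30000 of replicate 2 and 169 IDR peaks. Without counts of reads, depth is unknown. The lists made on ce10 were not used here.

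Ranks were computed within each list by signal over all chromosomes; 10 pooled and 14 replicate 1 peaks are mitochondrial. Coordinates count from 1 on ce11 and were set against the genes of Ensembl release 115 and the RefSeq genome of the same assembly (WBcel235); no peak ended beyond its chromosome. Genes were matched by name. Peaks were shared when they overlapped by 1 bp. A neighbour named beside a summit is the gene that holds it or has the closest transcript start. All 10 genes were named, with tbx-8, tbx-9, the 3 strongest other tbx genes and the 5 strongest of 31 partner genes; xol-1, tbx-30 and partner genes without a summit were added, and the length classes set, after values were seen. Repeats are words of 31 bases found more than once in the genome on either strand. With 1 group there is no comparison of conditions, and no test was made. Counting was checked on planted peaks. Alternatives changed the distance, the position used, the list length, the overlap, the core and the library. Software was Python 3.11.15, numpy 2.4.6, pandas 2.3.3 and matplotlib 3.10.9.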

Additional observations from a re-analysis of the deposited data

How the results depend on the processing

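No paired analysis was possible because there is 1 group. A count was taken to hold when it stayed within 1.5 times. The count of 0 genes with an IDR peak was also 0 at 1000 bp, at 5000 bp, with any overlap and among the stronger IDR peaks alone. None of these settings could change it, because the closest IDR summit lay 33128 bp from a T-box gene. Genes with a pooled summit numbered 5 to 9 under the changes of distance and position, and 2 among the 10000 strongest peaks. For 1 library alone, the replicate 1 or replicate 2 list was read in place of the pooled list. The counts were then 5 and 8 genes, 12 and 17 summits, and 24 and 29 partner genes. These are the replicate lists described above, not a separate check of the pooled list. The 13 pooled summits became 8 at 1000 bp, 25 at 5000 bp and 3 among the 10000 strongest. Genes with a summit in both replicates went from 5 to 8 at 5000 bp and to 2 among the 10000 strongest. The 4 pooled peaks that overlapped a peak of both replicates became 7 at 5000 bp and 2 among the 10000 strongest. They became 3 with an overlap of at least 0.5 of the peak. With both replicate summits within 100 bp of the pooled one, 1 was left. Genes where the replicates' own peaks overlapped numbered 3, and 2 under either stricter rule. Partner genes went from 28 to 16 among the 10000 strongest. Genes with GGTGTGA went from 1 to 2 in whole peaks. These alternatives lengthen or shorten the stretch, window or list, or make the rule for sharing stricter. The median rank was 12261 to 15040 where it had a value, including 14978.5 in replicate 2; it had none at 1000 bp, among the 10000 strongest or in replicate 1, where at most 5 genes had a summit.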
